A study of Homo sapiens with 12 samples.

Results

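The genes described here are 10 genes of the circadian clock, PER1, PER2, PER3, CRY1, CRY2, NR1D1, NR1D2, DBP, CLOCK and CIART, out of 61044 gene identifiers in the count table. They were taken as a named list, with their levels in these libraries already known, so their levels and their differences between groups are given as descriptions without a test. Of the 10 genes, 9 passed the filter on low counts, and CIART did not. The cells were SCC-15, an established line from a squamous carcinoma of the mouth. They carried a hairpin RNA that served as negative control (NC) or a hairpin (shRNA1, shRNA2 or shRNA3) directed at FMOD, which encodes the matrix proteoglycan fibromodulin. All groups were grown in 6-well plates in DMEM with 10% fetal bovine serum and were harvested at 48 hours, 3 libraries a group and 12 in all. Whether the 3 libraries of a group came from separate cultures, and whether a hairpin line was a pool or 1 clone, is not given in the sources used here, so their spread may be technical. The groups were harvested at a single time, so a change in the level of a rhythmic gene and a shift of its phase cannot be told apart. In bulk RNA, fewer cells that use a gene and less RNA per cell cannot be told apart either.

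In the mammalian clock, CLOCK or its paralogue NPAS2 pairs with BMAL1 (listed in older tables as ARNTL) and activates genes with E-box elements, among them the PER, CRY and NR1D genes. PER and CRY proteins then bind back and repress that pair, while the NR1D nuclear receptors (REV-ERB) repress and the ROR receptors activate BMAL1. A further layer of outputs runs through D-box elements, which DBP, TEF and HLF activate and NFIL3 represses. PER1 is also known as a gene that serum, cyclic AMP and glucocorticoid signals induce directly, and cultured cells can be set in phase by such signals.

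Promoter sequence was looked up for the genes whose levels differed most within the shRNA3 group (PER1, NR1D1 and DBP), for NR1D2, the paralogue of NR1D1, and for CIART, which was barely read. The 250 bases before the start site are printed 5′ to 3′ from the RefSeq promoter table (GRCh38.p14), and capitals mark matches to the motifs searched. The windows lie at chr17:8152405-8152654 (PER1, minus strand), chr17:40100590-40100839 (NR1D1, minus strand), chr19:48637380-48637629 (DBP, minus strand), chr3:23945871-23946120 (NR1D2, plus strand, the second start in the table) and chr1:150282304-150282553 (CIART, plus strand).
PER1: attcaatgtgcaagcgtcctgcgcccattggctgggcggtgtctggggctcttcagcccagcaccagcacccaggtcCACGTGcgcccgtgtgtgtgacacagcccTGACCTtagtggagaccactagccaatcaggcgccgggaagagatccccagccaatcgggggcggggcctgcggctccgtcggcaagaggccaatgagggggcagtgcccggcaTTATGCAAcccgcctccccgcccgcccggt
NR1D1: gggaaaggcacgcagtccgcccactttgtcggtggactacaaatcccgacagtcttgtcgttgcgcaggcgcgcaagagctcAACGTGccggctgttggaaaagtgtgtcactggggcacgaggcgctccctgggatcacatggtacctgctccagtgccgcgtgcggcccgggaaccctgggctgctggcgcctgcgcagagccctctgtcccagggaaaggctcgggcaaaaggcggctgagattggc
DBP: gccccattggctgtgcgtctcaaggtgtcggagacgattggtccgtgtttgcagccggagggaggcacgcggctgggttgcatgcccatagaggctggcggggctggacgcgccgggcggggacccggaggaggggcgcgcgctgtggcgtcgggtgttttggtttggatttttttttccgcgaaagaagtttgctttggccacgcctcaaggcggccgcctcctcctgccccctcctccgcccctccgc
NR1D2: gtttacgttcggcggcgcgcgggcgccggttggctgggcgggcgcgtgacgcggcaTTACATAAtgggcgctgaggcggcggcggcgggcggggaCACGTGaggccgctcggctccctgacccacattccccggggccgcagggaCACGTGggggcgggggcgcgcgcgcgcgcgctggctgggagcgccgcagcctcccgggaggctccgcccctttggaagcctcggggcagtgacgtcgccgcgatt
CIART: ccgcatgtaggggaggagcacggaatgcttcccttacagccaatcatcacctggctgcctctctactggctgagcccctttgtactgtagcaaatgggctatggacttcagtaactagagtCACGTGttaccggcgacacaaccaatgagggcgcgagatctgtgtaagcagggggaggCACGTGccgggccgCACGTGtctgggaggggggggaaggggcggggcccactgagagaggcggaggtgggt
The motifs searched on both strands were the E-box CACGTG, the variant CACGTT, the D-box forms TTATGTAA and TTATGCAA, AGGTCA, an element read by NR1D and ROR receptors, and the cyclic AMP response element TGACGTCA. The PER1 window holds an E-box, AGGTCA on the opposite strand and a D-box, and the NR1D1 window holds CACGTT on the opposite strand. The NR1D2 window holds a pair of E-boxes and a D-box on the opposite strand, the CIART window holds 3 E-boxes, and the DBP window holds no match. All 10 genes had at least 1 of 14 windows in the table, each of 300 bases with 50 bases after the start. Of the 14 windows, 3 held CACGTG against 7.26% of all 35116 windows in the table, and 5 held CACGTT against 5.34%. The forms TTATGTAA and TTATGCAA were in 2 and 1 of the 14 windows (0.886% and 0.846% of all windows), AGGTCA in 3 (13.8%) and TGACGTCA in 0 (1.85%). No match overlapped another motif in these windows, and a match is a description of letters, not of binding.

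Libraries 1 and 2 of shRNA3 stood apart from library 3 of the same hairpin, and they are therefore shown apart throughout. Their counts differed from those of library 3 by a chi-square of 234 and 238 per gene, against 9.65 to 54.2 within shRNA1 and 12.8 to 16.1 within NC. Library totals lay between 17286934 and 19567192 counts. Levels are given in CPM, counts scaled to a common library total and by edgeR's TMM factors, which were 0.771 and 0.795 for shRNA3 libraries 1 and 2 and 1.06 for library 3. With library totals alone the median log2 fold change of all genes was -0.10, -0.18 and -0.35 for shRNA1, shRNA2 and shRNA3, against -0.02, -0.05 and -0.03 with TMM. FMOD itself had 2, 2 and 3 counts in the NC libraries and 0 counts in all 9 hairpin libraries, so that its depletion is seen only at the limit of detection. The 8 squamous epithelial markers examined were read in all groups, with a summed level of 2334 to 2528 CPM in NC, 1563 to 1973 with shRNA1, 1765 to 1836 with shRNA2 and 1543 to 2627 with shRNA3. By the edgeR test described below, KRT5 and CDH1 fell and KRT14, KRT6A and KRT17 rose with all 3 hairpins. KRT5 went from 965 to 1049 CPM in NC to at most 90.3 CPM in a hairpin library and CDH1 from 310 to 336 CPM to at most 79.4 CPM. KRT14 went from 6.51 to 9.59 CPM to at least 24.2 CPM, KRT6A from 78.1 to 108 CPM to at least 185 CPM, and KRT17 from 281 to 345 CPM to at least 540 CPM. Summed fibroblast markers (5 genes) lay at 56.0 to 58.0 CPM in NC, 15.5 to 21.1 with shRNA1, 44.1 to 48.2 with shRNA2 and 32.6 to 86.6 with shRNA3. Summed endothelial markers (3 genes) lay at 17.6 to 23.1, 3.88 to 5.88, 6.87 to 8.46 and 8.68 to 13.3 CPM, and leukocyte markers (4 genes) at 4.11 to 5.07, 0.723 to 1.84, 1.58 to 2.27 and 0.742 to 1.59 CPM, in the same order. The endothelial sum joins genes that went opposite ways. Mean PECAM1 rose from 0.133 CPM in NC to 2.60, 4.76 and 8.74 CPM with shRNA1, shRNA2 and shRNA3. Mean CDH5 fell from 17.3 to 1.94, 2.53 and 1.35 CPM, and mean VWF from 2.02 to 0.282, 0.341 and 0.525 CPM. The fibroblast sum was mostly COL1A1, whose mean was 41.7 CPM in NC, 17.3 for shRNA1, 44.6 for shRNA2 and 65.9 for shRNA3. By the same edgeR test, COL1A1 was called lower for shRNA1 only. PDGFRB and COL1A2, by contrast, were called lower for every hairpin. PDGFRB was at least 9.36 CPM in NC and at most 1.29 CPM in a hairpin library. COL1A2 was at least 4.515 CPM in NC and at most 0.2065 CPM in a hairpin library. None of the squamous, fibroblast, endothelial or leukocyte markers was at 0 in all 12 libraries. DCN and PTPRC reached at most 0.371 and 0.436 CPM, and the part of such markers in the results below was not tested.

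Among the repressors of the loop, PER1 (ENSG00000179094, chromosome 17, 8140472 to 8156506, minus strand in GRCh38) showed the widest range. PER1 was read at 65.6, 48.5 and 58.1 CPM in NC, at 29.1, 17.9 and 8.26 CPM with shRNA1 and at 27.1, 25.9 and 26.0 CPM with shRNA2. With shRNA3 it stood at 887 and 806 CPM in libraries 1 and 2 and at 11.4 CPM in library 3. All 6 libraries of shRNA1 and shRNA2 and shRNA3 library 3 were thus below the lowest NC library, while shRNA3 libraries 1 and 2 were the highest of the 12. The log2 fold change against NC was -1.64 (SE 0.96) for shRNA1, -1.13 (SE 0.95) for shRNA2 and 3.31 (SE 1.01) for shRNA3. All 4 groups share a dispersion per gene, so the SEs of shRNA1 and shRNA2 also carry the split within shRNA3. The same holds for the other genes below. In edgeR fits of the 6 libraries of a hairpin and NC, the values were -1.64, -1.12 and 3.39. PER1 was called at an adjusted p under 0.05 with shRNA1 and shRNA2 in those fits, and not with shRNA3. With shRNA3 represented by library 3 alone, an alternative chosen after seeing the data, the value for shRNA3 was -2.30 (SE 0.55), of opposite sign. That fit assumes that the lone library varies like those of the other groups.

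PER2 (chromosome 2, 238244038 to 238290102, minus strand), the PER paralogue that scaffolds the repressor complex, was read at 18.8, 15.3 and 17.9 CPM in NC. Its levels were 18.5, 13.2 and 12.6 CPM with shRNA1, 25.7, 29.6 and 27.9 CPM with shRNA2, and 52.1, 43.5 and 17.6 CPM in shRNA3 libraries 1, 2 and 3. shRNA1 overlapped NC, shRNA2 lay wholly above it, and shRNA3 library 3 fell inside the NC range. The log2 fold changes were -0.23, 0.68 and 1.12 (SE 0.32 each), and 0.06 (SE 0.22) for shRNA3 by library 3 alone. PER3 (chromosome 1, 7784320 to 7845177, plus strand, sharing up to 868 exon bases with a neighbour on the opposite strand), a PER paralogue that is not essential for rhythm, was the least read of the tested genes. It stood at 5.66, 7.78 and 6.39 CPM in NC, 4.38, 3.29 and 3.15 CPM with shRNA1, 4.04, 5.92 and 5.04 CPM with shRNA2, and 7.05, 5.90 and 2.93 CPM with shRNA3. With TMM only the shRNA1 libraries were all below NC, and the log2 fold changes were -0.87, -0.40 and -0.33 (SE 0.33, 0.32 and 0.32). By library totals alone the shRNA2 libraries (3.95 to 6.05 CPM) and shRNA3 libraries (3.11 to 5.43 CPM) were also all below NC (6.19 to 8.63 CPM). For shRNA3 by library 3 alone the log2 fold change of PER3 was -1.14.

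CRY1 (chromosome 12, 106991364 to 107093829, minus strand), the stronger repressor of the CRY pair, had the only member pattern in which shRNA3 libraries 1 and 2 were the lowest of the 12. It was read at 50.3, 38.0 and 43.9 CPM in NC, 49.1, 42.5 and 24.0 CPM with shRNA1, 24.0, 32.5 and 29.4 CPM with shRNA2, and 18.6, 19.9 and 25.4 CPM with shRNA3. All shRNA2 and all shRNA3 libraries were below the lowest NC library, and in shRNA1 library 3 alone was. The log2 fold changes were -0.20, -0.62 and -1.05 (SE 0.25 each), and the first became 0.06 without shRNA1 library 3. CRY2 (chromosome 11, 45847118 to 45883248, plus strand), its paralogue, stood at 37.6, 30.3 and 32.5 CPM in NC. Its levels were 19.3, 14.3 and 9.03 CPM with shRNA1, 9.66, 11 and 10.9 CPM with shRNA2, and 42.3, 37.9 and 7.0 CPM with shRNA3. Thus 7 hairpin libraries were below every NC library, and shRNA3 libraries 1 and 2 were above every NC library. Scaled by library totals alone, these 2 libraries were at 32.6 and 30.1 CPM against 33.6 to 41.1 CPM in NC, so their place above NC rests on the scaling. The log2 fold changes of CRY2 were -1.24 (SE 0.50), -1.67 (SE 0.51) and -0.21 (SE 0.49), and for shRNA3 -2.23 (SE 0.35) by library 3 alone and 0.26 without library 3.

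CIART (ENSG00000159208, chromosome 1, 150282543 to 150287093, plus strand), a repressor of the CLOCK and BMAL1 pair, was close to the limit of detection. It had 1, 3 and 1 counts in NC, 8, 1 and 0 with shRNA1, 0, 0 and 2 with shRNA2, and 2, 2 and 0 with shRNA3. The library with the most counts corresponded to 0.411 CPM of its total, without the TMM factor (95% interval 0.178 to 0.810, exact Clopper-Pearson, covering counting error only). In the 4 libraries without a count, the 3 counts that a count of 0 allows correspond to 0.149 to 0.176 CPM. No fold change was computed, and differences between groups were not detectable at this depth.

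The nuclear receptor NR1D1 (REV-ERBα, chromosome 17, 40092787 to 40100725, minus strand, sharing 263 exon bases with THRA on the opposite strand) was above NC in all 9 hairpin libraries. It was read at 13.2, 12.5 and 12.6 CPM in NC, 23.8, 21.2 and 21.9 CPM with shRNA1, and 39.3, 41.4 and 39.7 CPM with shRNA2. With shRNA3 it stood at 1189 and 1025 CPM in libraries 1 and 2 and at 20.3 CPM in library 3. NC, shRNA1 and shRNA2 formed 3 levels that did not overlap, and library 3 of shRNA3 fell just below the shRNA1 level. The log2 fold changes were 0.81 (SE 0.86), 1.65 (SE 0.88) and 5.87 (SE 1.03), and by library 3 alone 0.82 (SE 0.11), 1.67 and 0.70 (SE 0.14). NR1D2 (REV-ERBβ, chromosome 3, 23945260 to 23980618, plus strand), its paralogue, moved in a much narrower range. Its levels were 28.1, 23.4 and 29.7 CPM in NC, 29.9, 32.4 and 27.6 CPM with shRNA1, 33.3, 34.7 and 32.0 CPM with shRNA2, and 53.5, 45.1 and 38.2 CPM with shRNA3. The shRNA2 and shRNA3 libraries all lay above NC and the shRNA1 libraries overlapped it, with log2 fold changes of 0.15, 0.30 and 0.75 (SE 0.16 each). By library totals alone the shRNA2 libraries of NR1D2 (32.4 to 35.5 CPM) overlapped NC (25.9 to 32.8 CPM), and the value for shRNA3 was 0.40.

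DBP (chromosome 19, 48630030 to 48637438, minus strand, sharing 661 exon bases with SPHK2 on the opposite strand), the D-box activator, was low with shRNA1, near NC with shRNA2 and split within shRNA3. It was read at 28.4, 24.6 and 28.1 CPM in NC, 8.91, 7.27 and 3.15 CPM with shRNA1 and 30.8, 29.9 and 28.6 CPM with shRNA2. With shRNA3 it stood at 301 and 280 CPM in libraries 1 and 2 and at 14.3 CPM in library 3. The shRNA1 libraries and shRNA3 library 3 were below NC, the shRNA2 libraries were just above it, and the other 2 libraries were far above it. By library totals alone the shRNA2 libraries were at 29 to 30.6 CPM, inside the NC range of 27.3 to 31.1 CPM, so their place above NC rests on the scaling. The log2 fold changes were -2.07 (SE 0.77), 0.14 (SE 0.73) and 2.88 (SE 0.78), and the last became -0.89 (SE 0.37) by library 3 alone.

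CLOCK (chromosome 4, 55427903 to 55547138, minus strand), the activator of the loop, was the member with the opposite pattern. It was read at 12.8, 9.75 and 13.8 CPM in NC, 30.2, 36.5 and 52.6 CPM with shRNA1, 47.5, 51.8 and 45.2 CPM with shRNA2, and 14.1, 13.1 and 31.7 CPM with shRNA3. The 6 libraries of shRNA1 and shRNA2 and library 3 of shRNA3 were all more than 2-fold above the highest NC library, while shRNA3 libraries 1 and 2 were at 14.1 and 13.1 CPM, close to it. The log2 fold changes were 1.72, 1.99 and 0.71 (SE 0.33 each), and 1.42 (SE 0.25) for shRNA3 by library 3 alone. The plot of CPM by library shows these values for the 9 tested genes.

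**Figure D1:**
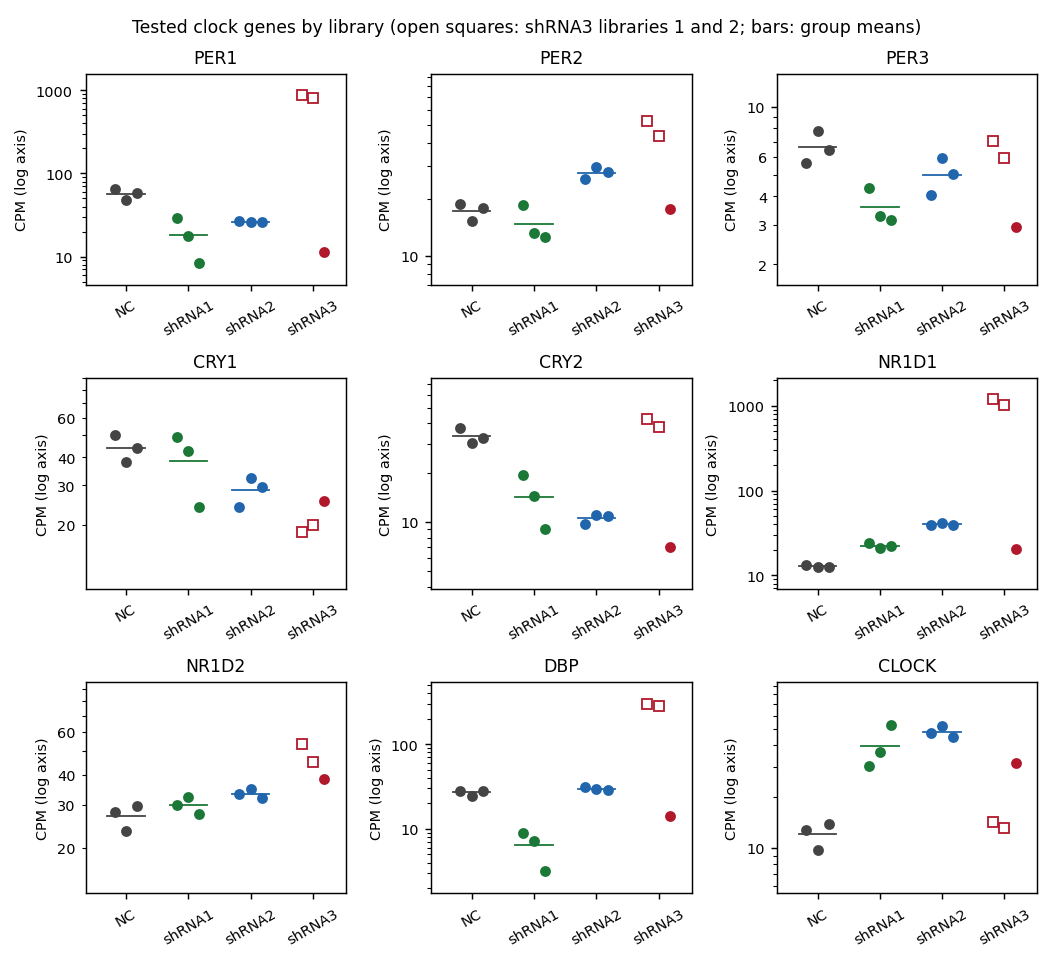
CPM of each tested clock gene in each library, 1 panel a gene on a log axis, with 3 points a group and open squares for shRNA3 libraries 1 and 2. Horizontal bars are group means and are not drawn for shRNA3. PER1, NR1D1 and DBP are the genes in which the open squares stand highest above all other points, and in the CLOCK panel they sit with NC at 14.1 and 13.1 CPM.

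Counted with edgeR's quasi-likelihood test at an adjusted p under 0.05, 3 of the 9 tested genes were called with shRNA1 (CLOCK higher, DBP and PER3 lower), beside 57.4% of all 17532 genes tested (26.8% higher, 30.6% lower). With shRNA2 2 of 9 were called (CLOCK higher, CRY2 lower), beside 53.0% of all genes (24.6% higher, 28.4% lower). With shRNA3 6 of 9 were called (PER1, PER2, NR1D1, NR1D2 and DBP higher, CRY1 lower), beside 53.9% (26.4% higher, 27.6% lower). The members were chosen on these comparisons, so the counts carry no weight of their own. With shRNA3 represented by library 3, the counts were 6, 7 and 6 of 9, beside 71.3%, 68.1% and 56.9% of all genes, and the 6 called for shRNA3 (CLOCK, NR1D1 and NR1D2 higher, PER1, PER3 and CRY2 lower) shared 3 genes with the 6 called from all libraries. When each hairpin was compared with NC in a fit of those 6 libraries alone, the counts were 6, 7 and 3, beside 71.8%, 79.2% and 43.4% of the genes tested. By ranges, every shRNA1 library was below every NC library for 4 genes (38.6% of all genes tested) and above for 2 (35.7%). For shRNA2 the counts were 3 below (41.4%) and 5 above (38.2%), and for shRNA3 1 below (32.0%) and 2 above (25.5%). By library totals alone shRNA2 had 4 below (45.3%) and 3 above (33.7%), since DBP and NR1D2 then overlapped NC, shRNA3 had 3 below (38.7%) and 2 above (18.9%), and shRNA1 kept its counts of 4 (41.0%) and 2 (33.1%). The median log2 fold change of the 9 genes was -0.23, 0.14 and 0.75, and that of all genes tested was -0.02, -0.05 and -0.03. The median size of the change without its sign was 0.87, 0.68 and 1.05 for the 9 genes and 0.92, 0.85 and 0.87 for all genes. The 3 comparisons share their NC libraries.

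**Figure D2:**
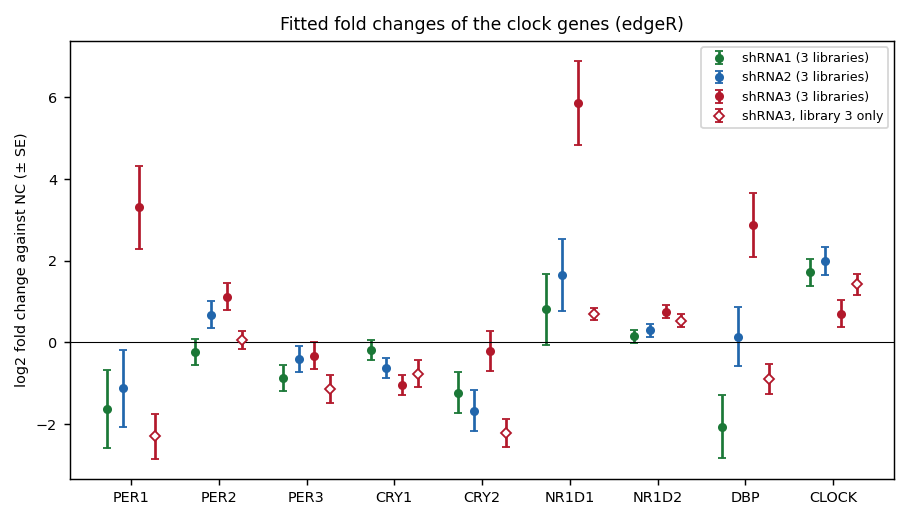
Log2 fold change against NC with its standard error for the 9 tested clock genes (vertical axis) by hairpin, from the edgeR fit of all 12 libraries (filled circles) and, for shRNA3, from the fit that holds only its library 3 (open diamonds). The filled and open shRNA3 symbols lie on opposite sides of 0 for PER1 (3.31 and -2.30) and DBP (2.88 and -0.89) and on the same side for CLOCK (0.71 and 1.42).

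Within shRNA3, the clock genes differed between libraries 1 and 2 and library 3 by amounts that ran from far above to below 1. The mean of libraries 1 and 2 was 74.1-fold that of library 3 for PER1, 54.6-fold for NR1D1 and 20.4-fold for DBP. It was 5.73-fold for CRY2, 2.71-fold for PER2, 2.21-fold for PER3 and 1.29-fold for NR1D2, and 0.757-fold for CRY1 and 0.429-fold for CLOCK. Only the 16206 tested genes with more than 3 counts in library 3 were ranked, so genes nearly absent from library 3 have no rank. Among those ranked, PER1 was 3rd and NR1D1 4th from the top, DBP was 44th, CRY2 410th, PER2 1698th and PER3 2531st. Both libraries were at least 2-fold above library 3 for 6 of the 9 genes, beside 20.1% of all genes tested, and at least 2-fold below for CLOCK, beside 23.1%. By library totals alone the counts were 4 above (13.2% of all genes) and 1 below (32.6%). By totals the ratios were 54.5 for PER1, 40.2 for NR1D1 and 15 for DBP, those of PER2 (1.99) and PER3 (1.63) dropped under 2, and that of NR1D2 turned to 0.948. Library 3 lay within the range of the 6 shRNA1 and shRNA2 libraries for 5 of the 9 genes (PER1, PER2, CRY1, DBP and CLOCK), beside 74.3% of all genes. Libraries 1 and 2 both lay outside that range for 8 of 9, all but PER3, beside 60.4%. The list was chosen with this split known, so these counts describe it and do not test it.

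**Figure D3:**
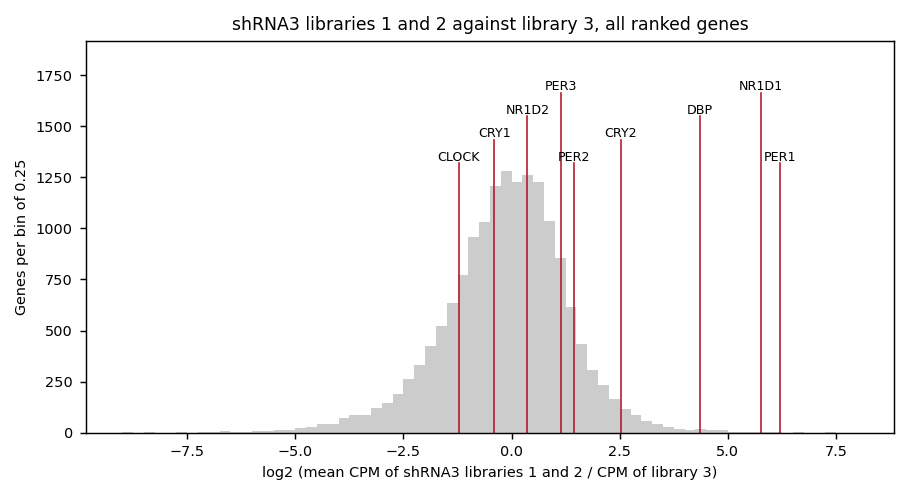
Number of genes (vertical axis) by the log2 ratio of the mean CPM of shRNA3 libraries 1 and 2 to the CPM of library 3 (horizontal axis, bins of 0.25), with red lines at the 9 tested clock genes. Only tested genes with more than 3 counts in library 3 are shown. PER1, NR1D1 and DBP lie at 6.21, 5.77 and 4.35 in the far right tail, and CLOCK at -1.22 is left of the centre.

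Ratios of paralogues within a library do not depend on the scaling between libraries. Counts were divided by the exon length of each gene. The ratio of PER1 to PER2 was 3.12 to 3.43 in NC, 0.644 to 1.55 with shRNA1, 0.859 to 1.03 with shRNA2, and 16.7, 18.2 and 0.636 in shRNA3 libraries 1, 2 and 3. PER1 was thus the more abundant of the pair in NC, and the ratio was below the NC range in 7 hairpin libraries and above it in the other 2. The ratio of CRY1 to CRY2 was 1.54 to 1.66 in NC, 3.12 to 3.63 with shRNA1 and 3.04 to 3.62 with shRNA2. In shRNA3 it was 0.538 and 0.643 in libraries 1 and 2 and 4.45 in library 3, so that the order of the CRY pair was turned round in those 2 libraries only. NR1D1 and NR1D2 were near parity in NC, with a ratio of 0.894 to 1.12, which became 1.37 to 1.67 with shRNA1 and 2.48 to 2.60 with shRNA2. In shRNA3 it was 46.7 and 47.7 in libraries 1 and 2 and 1.11 in library 3, inside the NC range. Between repressor and activator, the ratio of PER1 to CLOCK was 7.10 to 8.63 in NC, 0.264 to 1.62 with shRNA1, 0.839 to 0.969 with shRNA2 and 106, 103 and 0.605 with shRNA3. For NPAS2, the paralogue of CLOCK, the ratio to CLOCK was 1.26 to 1.79 in NC, 0.737 to 0.999 with shRNA1, 0.984 to 1.03 with shRNA2 and 1.33, 1.60 and 1.44 with shRNA3. In this ratio the 3 shRNA3 libraries did not stand apart and all lay in the NC range.

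**Figure D4:**
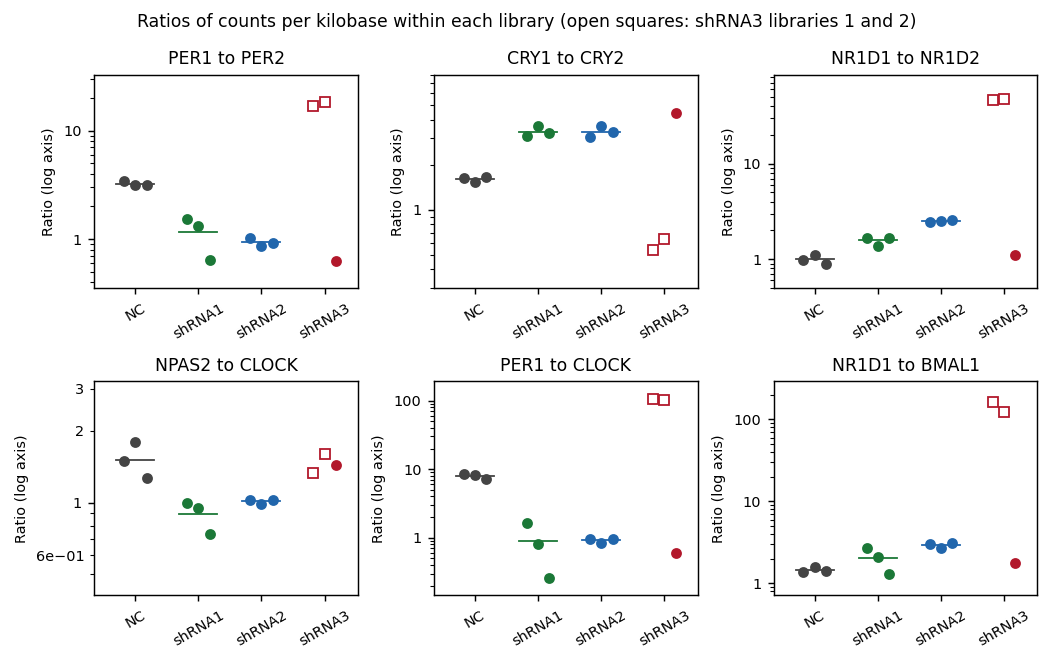
Ratio of counts per kilobase of exon between 2 clock genes within each library, 1 panel a pair on a log axis, with open squares for shRNA3 libraries 1 and 2 and bars at group means of the other groups. The open squares lie highest for PER1 to PER2, NR1D1 to NR1D2, PER1 to CLOCK and NR1D1 to BMAL1, lowest for CRY1 to CRY2, and inside the NC range of 1.26 to 1.79 for NPAS2 to CLOCK.

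Ordered by level per length in NC, CRY1 (8.71 CPM per kilobase of exon) and PER1 (8.20) came first, followed by CRY2 (5.40), NR1D2 (4.65), NR1D1 (4.60), DBP (4.13), PER2 (2.52), CLOCK (1.03), PER3 (0.816) and CIART (0.0308). Between neighbours in this order the ranges of the NC libraries overlapped for CRY1 and PER1, CRY2 and NR1D2, NR1D2 and NR1D1, and CLOCK and PER3, and not for the others. With shRNA2 the order was headed by NR1D1 at 14.5 CPM per kilobase, and CLOCK at 4.10 stood level with PER2 at 4.03. With shRNA1 NR1D1 (8.04) and CRY1 (7.61) led and DBP dropped to 0.984 CPM per kilobase. For the 9 tested genes the median spread between replicates was above that of all genes in 3 of the 4 groups. The list was chosen with the shRNA3 split known and was not matched to other genes by level, so this is a description. The median coefficient of variation of the 9 genes was 12.1% in NC (9.97% for all genes tested), 29% with shRNA1 (17.9%), 6.98% with shRNA2 (7.68%) and 53.3% with shRNA3 (38.2%). Within shRNA1, library 3 was the lowest for PER1, PER2, PER3, CRY1, CRY2, NR1D2 and DBP and the highest for CLOCK.

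The gene with the most similar profile to each member was found from log2(CPM + 0.5), centred on its mean over the 12 libraries, as the smallest root mean square difference among 11626 other genes. For PER1 it was NR4A1, an immediate early nuclear receptor gene, at 0.54. The median distance from PER1 over all genes was 2.11, close to the 2.02 by which PER1 itself varied about its mean. The smallest distance lies below that median by construction. NR4A1 stood at 32.5 to 37.1 CPM in NC, at 283 and 263 CPM in shRNA3 libraries 1 and 2 and at 14.2 CPM in library 3. For NR1D1 it was DSP-AS1 at 0.61, with 1.21 to 1.93 CPM in NC and 82.2, 78.4 and 2.63 CPM in the shRNA3 libraries. DSP-AS1 was below 5 CPM in every library except shRNA3 libraries 1 and 2. It met the required mean of at least 5 CPM only through them, so this match describes the known split. For DBP it was ADIRF-AS1 at 0.56, with 16.4 to 21.8 CPM in NC and 189, 190 and 6.71 CPM in the shRNA3 libraries. Members with smaller differences between libraries had closer neighbours. These were DGKA for PER2 (0.16), SELENOW for PER3 (0.18), CRISPLD2 for CRY1 (0.17), HLA-E for CRY2 (0.22), KCNC4 for NR1D2 (0.09) and STAG1 for CLOCK (0.13). Among the members themselves the closest pair was PER2 and NR1D2 at 0.40, and PER1 was closest to DBP at 0.74. All these distances share the same 12 libraries. The matches of PER1, NR1D1 and DBP share the high values of shRNA3 libraries 1 and 2, which were known when the members were chosen, so they are descriptions.

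The rest of the loop was tested in the same fit. The lists were drawn up by textbook role, but with earlier results of these data known, so counts over them are descriptions. Of 23 other clock genes (11 of the core loop and its D-box arm and 12 kinases, ubiquitin ligases, corepressors and partners), 12 changed with shRNA1 (6 higher, 6 lower), 12 with shRNA2 (5 higher, 7 lower) and 8 with shRNA3 (4 higher, 4 lower), beside the 57.4%, 53.0% and 53.9% of all genes given above. Their median log2 fold change was 0.21, 0.007 and 0.03. Genes that changed in 1 direction with all 3 hairpins numbered 4: BHLHE40 rose, and RORA, RORB and HDAC3 fell. Values for shRNA3 represented by library 3 are given below for some of these genes, without a count over the 23.

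BHLHE40 (DEC1), an E-box repressor outside the PER and CRY arm, was read at 21.1, 26.9 and 31.3 CPM in NC, 260, 266 and 255 CPM with shRNA1, 108, 118 and 111 CPM with shRNA2, and 787, 727 and 154 CPM with shRNA3. All 9 hairpin libraries were above NC. It rose by log2 fold changes of 3.30, 2.09 and 4.39 (SE 0.47, 0.45 and 0.49, edgeR adjusted p 1.26e-04, 0.00218 and 2.48e-05). The paralogue BHLHE41 did not pass (log2 fold changes 0.21, 0.71 and 0.22, edgeR adjusted p 0.583, 0.0755 and 0.578). With shRNA3 represented by library 3, BHLHE41 was called higher with shRNA2 (0.73, edgeR adjusted p 0.00690) and shRNA3 (0.83, 0.0214), and it was also called with shRNA2 in the fit of the 6 libraries of shRNA2 and NC (0.71, 4.35e-05).

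RORA and RORB, receptors that activate BMAL1, fell with every hairpin. RORA went from 5.50, 6.60 and 7.66 CPM in NC to between 2.20 and 4.49 CPM in the 9 hairpin libraries (log2 fold changes -1.25, -0.995 and -1.13, edgeR adjusted p 0.00309, 0.0117 and 0.00606). With shRNA2 its call was lost when NC library 3 or shRNA2 library 2 was left out. RORB was read at 8.99, 7.19 and 8.52 CPM in NC and had 0 counts in every shRNA1 library and at most 2 counts in any other hairpin library. Set against the 3 counts a library can miss, it was at least 53.2-fold lower with shRNA1, 46.9-fold with shRNA2 and 37.0-fold with shRNA3.

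BMAL1, the partner of CLOCK, stayed within a narrower range than CLOCK. It was at 23.3, 19.3 and 21.4 CPM in NC, 21.3, 24.5 and 40.9 CPM with shRNA1, 31.3, 37.4 and 31.4 CPM with shRNA2, and 17.9, 19.97 and 27.5 CPM with shRNA3. It passed with shRNA2 alone (log2 fold change 0.64, edgeR adjusted p 0.0475), a call that was lost when any 1 of the 6 libraries compared was left out and with either other scaling or either other filter, and had values of 0.44 and 0.03 with shRNA1 and shRNA3 (edgeR adjusted p 0.153 and 0.923). The difference between hairpins was not tested. BMAL2, its paralogue, rose with shRNA1 (log2 fold change 0.88, edgeR adjusted p 0.00297) and did not pass with shRNA2 (0.25, 0.325, but 0.26, 0.0361 with shRNA3 represented by library 3) or shRNA3 (-0.23, 0.363). NPAS2 was read at 20.2, 18.5 and 18.4 CPM in NC, 32.0 to 41.1 CPM with shRNA1, 49.3 to 54.1 CPM with shRNA2, and 19.9, 22.3 and 48.5 CPM with shRNA3. NPAS2 rose with shRNA1 and shRNA2 (log2 fold changes 0.95 and 1.44, edgeR adjusted p 0.0136 and 0.00128, the first lost with library totals alone), and with shRNA3 it was 0.67 (adjusted p 0.0639) from all libraries and 1.38 (adjusted p 4.72e-06) by library 3 alone.

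TEF, HLF and NFIL3 of the D-box arm fell with shRNA1 and shRNA2, whereas DBP was low with shRNA1 and near NC with shRNA2. TEF, a D-box activator like DBP, was read at 26.2, 26.1 and 27.7 CPM in NC, 6.97, 5.38 and 2.79 CPM with shRNA1, 6.32, 6.48 and 5.71 CPM with shRNA2, and 30.9, 25.5 and 3.97 CPM with shRNA3. TEF fell with shRNA1 and shRNA2 (log2 fold changes -2.40 and -2.11, edgeR adjusted p 0.00415 and 0.00875) and had a value of -0.41 with shRNA3 (adjusted p 0.546), or -2.72 (adjusted p 6.21e-05) by library 3 alone. DBP and TEF, near a common level in NC (ratio of DBP to TEF per kilobase 0.678 to 0.782), had a ratio of 0.814 to 0.974 with shRNA1, 3.33 to 3.62 with shRNA2, and 7.03, 7.90 and 2.59 in shRNA3 libraries 1, 2 and 3. All 9 hairpin libraries were above the NC range in this ratio, the shRNA1 libraries by the least. HLF, the third activator, read at 2.68 to 3.86 CPM in NC, fell with shRNA1 and shRNA2 (log2 fold changes -2.40 and -1.74, edgeR adjusted p 8.49e-04 and 0.00569). NFIL3, the D-box repressor, also fell with both, from 35.8 to 45.4 CPM in NC to 19.8 to 24.8 CPM (log2 fold changes -0.82 and -0.87, edgeR adjusted p 0.00351 and 0.00273). With shRNA3, HLF and NFIL3 did not pass (-0.64 and -0.04, edgeR adjusted p 0.219 and 0.889). HLF was called lower with shRNA3 by library 3 alone (-1.68, edgeR adjusted p 0.0134) and with library totals (-1.04, 0.0383).

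**Figure D5:**
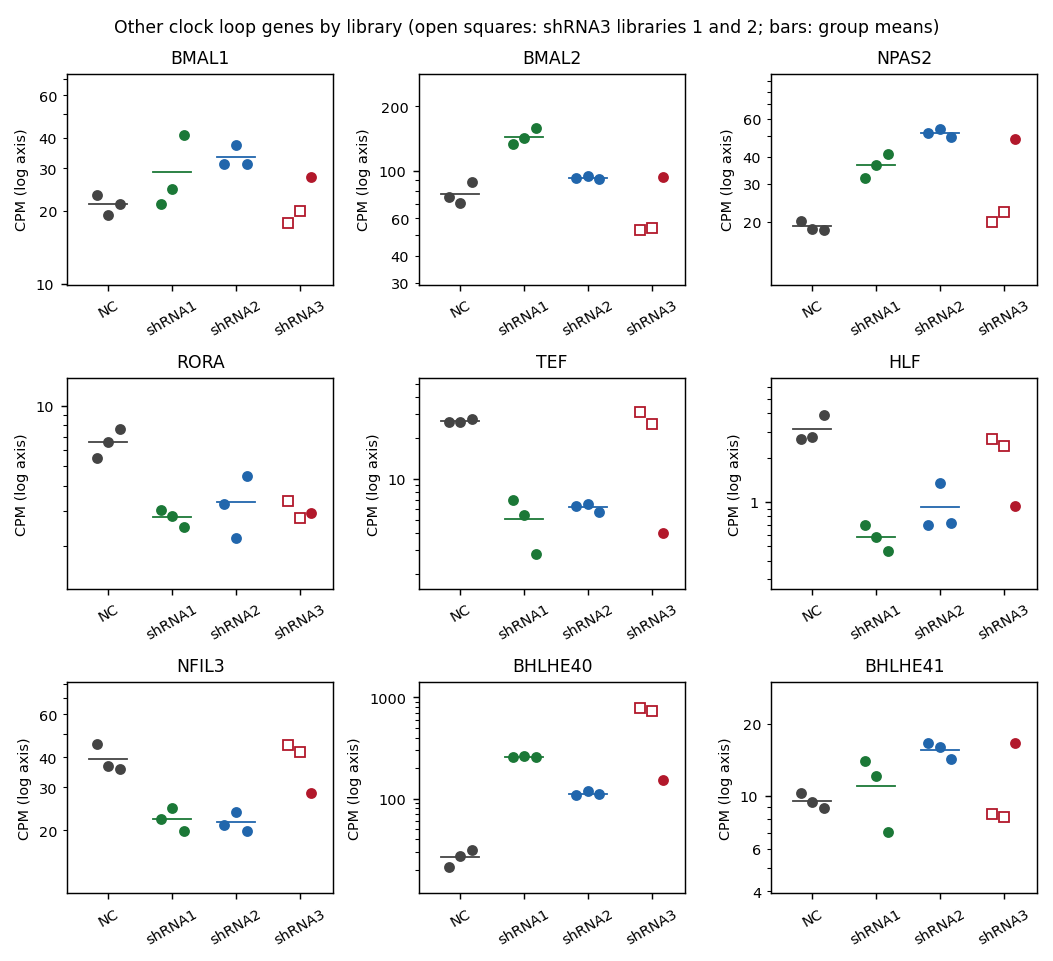
CPM by library of 9 core clock genes that are not in the list, 1 panel a gene on a log axis, with open squares for shRNA3 libraries 1 and 2 and bars at group means of the other groups. BHLHE40 is above NC and RORA below NC in all 9 hairpin libraries. For TEF and NPAS2 the open squares sit near NC, while library 3 (3.97 and 48.5 CPM) sits with shRNA1 and shRNA2. By library totals alone, not drawn here, shRNA3 libraries 1 and 2 were below every NC library for both genes. TEF was then at 23.8 and 20.25 CPM against 28.6 to 30.6 CPM in NC, and NPAS2 at 15.3 and 17.7 against 20.3 to 22.1 CPM.

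TIMELESS did not pass with any hairpin (log2 fold changes -0.05, 0.67 and -0.16, edgeR adjusted p 0.888, 0.0691 and 0.669). With shRNA3 represented by library 3, TIMELESS was called higher with shRNA2 (0.69, edgeR adjusted p 4.74e-05) and shRNA3 (0.59, 0.00287), and it was also called with shRNA2 in the fit of the 6 libraries of shRNA2 and NC (0.68, 8.39e-08). Of the 12 kinases, ligases and corepressors, 4 changed with shRNA1 (3 higher, 1 lower), 4 with shRNA2 (2 higher, 2 lower) and 5 with shRNA3 (3 higher, 2 lower), beside the 57.4%, 53.0% and 53.9% of all genes. With shRNA1 the count was 8 when shRNA3 was represented by library 3, beside 71.3% of all genes. HDAC3, the deacetylase that NR1D receptors recruit, fell with all 3 hairpins, from 124 to 142 CPM in NC to 88.9 to 112 CPM (log2 fold changes -0.49, -0.52 and -0.38, edgeR adjusted p 0.00457, 0.00355 and 0.0197). Its call with shRNA3 was lost without NC library 1, NC library 2 or shRNA3 library 2, without a filter on low counts and in the fit of the 6 libraries compared. CSNK1E, a kinase of PER proteins named here after its values were seen, stood at 234 to 240 CPM in NC and at 1430, 1314 and 233 CPM in the shRNA3 libraries. CSNK1E rose with shRNA3 by 2.07 on the log2 scale (edgeR adjusted p 0.00354), a value that became 0.01 (adjusted p 0.974) by library 3 alone.

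Of 6 clock-controlled output genes, 5 changed with shRNA1 (3 higher, 2 lower), 5 with shRNA2 (2 higher, 3 lower) and 3 with shRNA3 (2 higher, 1 lower), beside 57.4%, 53.0% and 53.9% of all genes, so that the share with shRNA3 was near that of all genes. WEE1, the mitotic inhibitor kinase, rose with all 3 hairpins, from 27.7, 29.6 and 31.9 CPM in NC to at least 64.2 CPM in every hairpin library (log2 fold changes 1.28, 2.34 and 1.54, edgeR adjusted p 3.03e-05, 5.62e-07 and 9.14e-06). The shRNA3 libraries did not stand apart for WEE1, at 99.5, 84.8 and 75.2 CPM. KLF11, a Krüppel-like factor, rose from 7.76 to 9.90 CPM in NC to 18.4 to 28.6 CPM with shRNA1, 21.8 to 27.3 CPM with shRNA2 and 99.2, 82.9 and 19.4 CPM with shRNA3 (log2 fold changes 1.39, 1.45 and 2.90, edgeR adjusted p 0.0203, 0.0181 and 3.41e-04). Its call was lost with shRNA1 when NC library 2, NC library 3 or shRNA1 library 1 was left out, and with shRNA2 when NC library 3 was.

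A list of 7 genes that glucocorticoids induce was read beside PER1, which it contains. Of its 6 tested genes, 3 were called with shRNA1 (2 higher, 1 lower), 4 with shRNA2 (3 higher, 1 lower) and 4 with shRNA3 (4 higher), beside 57.4%, 53.0% and 53.9% of all genes. With so few genes these shares, taken in either direction, are near those of all genes. By direction, all 4 calls with shRNA3 were higher, beside 26.4% of all genes higher and 27.6% lower. ZBTB16 had 0 counts in all 12 libraries. By library 3 alone, shRNA3 gave 5 calls (DUSP1, FKBP5 and SGK1 higher, KLF9 and PER1 lower), beside 56.9% of all genes, so that PER1 changed direction, TSC22D3 was not called and KLF9 (log2 fold change -1.52, edgeR adjusted p 3.20e-04) and FKBP5 (0.795, 2.50e-04) were. DUSP1, a MAP kinase phosphatase, was at 13.7, 12.02 and 14.5 CPM in NC, 103 to 197 CPM with shRNA1, 72.7 to 75.9 CPM with shRNA2, and 1891, 1911 and 79.4 CPM with shRNA3. DUSP1 rose with all 3 hairpins (log2 fold changes 3.52, 2.47 and 6.59, edgeR adjusted p 0.00322, 0.0194 and 1.35e-04). The call with shRNA2 was lost when any 1 of the NC libraries was left out and without a filter on low counts. SGK1, a kinase, also rose with all 3, from 19.99 to 22.0 CPM in NC to at least 59.8 CPM in every hairpin library (log2 fold changes 2.64, 1.55 and 1.88, edgeR adjusted p 3.11e-06, 1.15e-04 and 3.07e-05). TSC22D3 (GILZ), named after its values were seen, stood at 15.8 to 22.3 CPM in NC and at 913, 759 and 15.8 CPM in the shRNA3 libraries, 6th of the 16206 genes ranked by the split. It was at 7.54 to 12.5 CPM with shRNA1, below every NC library, and at 15.3 to 16.95 CPM with shRNA2. The log2 fold change with shRNA1 was -0.94 (edgeR adjusted p 0.380, and 0.00241 in the fit of the 6 libraries of shRNA1 and NC). FKBP5, also named after its values were seen, went the other way within shRNA3, at 27.1, 26.8 and 49.1 CPM against 26.9 to 31.4 CPM in NC. KLF9, named in the same way, was the gene called lower with shRNA1 and shRNA2. Its log2 fold changes were -2.41, -1.42 and -0.20 (edgeR adjusted p 3.28e-04, 0.00796 and 0.669). It was at 37.1 to 45.7 CPM in NC and at 47.2, 46.9 and 14.2 CPM in the shRNA3 libraries. Of the 6 tested genes of the list, 4, PER1 among them, had shRNA3 libraries 1 and 2 both at least 2-fold above library 3, beside 20.1% of all genes. At least 2-fold below were 0, beside 23.1%. The list was chosen with earlier results known, and a part of glucocorticoid signals was not tested.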

How the data were processed

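RNA sequencing of 12 SCC-15 libraries (4 groups of 3, from the sample titles) was used. The authors deposited a table of expected counts (estimated counts per gene, not scaled). Of its values 13.8% are not whole, and these were rounded. The submitters' processing notes name HISAT2, HTSeq 0.11.2 and GRCh38, and the annotation, filters and use of strand in counting are not given in the sources used here, so reads of overlapping genes on opposite strands may not be separated. Symbols were matched for 60463 of 61044 identifiers, and positions and exon lengths came from GENCODE on GRCh38. Counts were scaled by TMM, genes were kept by filterByExpr (minimum count 10, minimum total 15), and 17532 genes were fitted with edgeR 4.0.16 (R 4.3.3, quasi-likelihood F test, two-sided, robust, 4 groups in 1 model, residual df 8, common BCV 0.289). The Benjamini-Hochberg adjustment ran over all genes tested, and the threshold was 0.05. Standard errors were the size of the log2 fold change divided by the square root of F. Scripts were tested on simulated data. Counts of a tested member ranged from 59 to 16034 per library. Without molecular identifiers, reads are not independent molecules, so intervals and the 3-count floor hold for counting error alone.

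The members and all lists were chosen with earlier results of these data known. The genes named are all members, every core clock gene that passed the filter except 1 that is not reported here or counted and, of each other list, up to 4 genes with an adjusted p under 0.05 in 1 direction for all 3 hairpins, besides those stated as named later. For each member the most similar non-member with a mean of at least 5 CPM was named. Alternatives were other scalings and filters, DESeq2 1.42.0, a replicate block, fewer libraries and a threshold of 0.01.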

Additional observations from a re-analysis of the deposited data

Results flagged for a closer look

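DBP differed in direction between hairpins. All 3 shRNA1 libraries were below every NC library (log2 fold change -2.07) and all 3 shRNA2 libraries were above every NC library (log2 fold change 0.14, SE 0.73). The difference between the hairpins was not tested, and the shRNA2 libraries exceeded the highest NC library (28.4 CPM) by little, with 28.6 to 30.8 CPM. By library totals alone they were at 29 to 30.6 CPM, inside the NC range of 27.3 to 31.1 CPM, so the direction with shRNA2 did not hold with that scaling.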

How the results depend on the processing

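The number of members called depended on which libraries entered the fit. The share of all genes called, given in brackets, moved as well. With shRNA1 the number was 3 (57.4%), and it was 1 without a filter on low counts (29.9%) and 1 at an adjusted p under 0.01. It was 6 with only the 6 libraries compared (71.8%) and 1 to 2 when 1 library was left out (48.1% to 53.1%). With shRNA2 it was 2 (53.0%), and it was 1 at an adjusted p under 0.01, 7 with only the 6 libraries compared (79.2%), and 1 to 2 when 1 library was left out (43.9% to 45.3%). With shRNA3 it was 6 (53.9%), and it was 3 with only the 6 libraries compared (43.4%) and 5 to 7 when 1 library was left out (45.9% to 73.1%). At an adjusted p under 0.01 the share of all genes was not counted. For the 23 other clock genes the count with shRNA3 was 8, and it was 7 to 13 when 1 library was left out. The highest was without shRNA3 library 3, where 73.1% of all genes were called, against 53.9% in the main fit. The cause was not tested. The counts of other clock genes with shRNA1 and shRNA2 stayed within 1.5 times under the alternatives run. Of the 9 tested members, the number with every shRNA2 library above every NC library was 5, and 3 with library totals alone, and the number with every shRNA3 library below was 1, and 3 with library totals alone. The other counts by ranges stayed within 1.5 times under that scaling, and the shorter lists were recounted with library totals and with library 3 of shRNA3 only.

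Log2 fold changes that changed sign were, by library 3 only for shRNA3, PER1 (-2.30), DBP (-0.89), BMAL2 (0.28), TIMELESS (0.59) and TSC22D3 (-0.24). With library totals alone they were BMAL1 (-0.26) and BHLHE41 (-0.044) for shRNA3 and CSNK1E (-0.025) for shRNA2. Others were BMAL1 with a mean of at least 50 counts (-0.038) and NFIL3 with only the 6 libraries compared (0.039), both for shRNA3. When 1 library was left out the ranges crossed 0 for shRNA3 in BMAL1 (-0.18 to 0.21), TEF (-0.79 to 0.076), NFIL3 (-0.11 to 0.14), BHLHE41 (-0.21 to 0.44), TIMELESS (-0.72 to 0.13), KLF9 (-0.38 to 0.18) and CRY2 (-0.51 to 0.26), and for shRNA1 in TIMELESS (-0.16 to 0.012) and CRY1 (-0.40 to 0.06).

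Replicate numbers in the titles are shared between groups, and same-numbered libraries did not deviate together (mean correlation -0.004 over 18 pairs, 3 of 12 libraries closest to their own number). With the replicate block, 4, 2 and 6 members and 11, 12 and 8 other clock genes were called with shRNA1, shRNA2 and shRNA3. Of all genes, 55.3%, 51.0% and 52.0% were called in that fit. CIART could not be compared at these depths.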
